A study of Macaca fascicularis with 22 samples.

Results

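Chemokines are small secreted proteins that draw leukocytes along a gradient, and each array here held probes for 9 of 10 chemokine transcripts that had been listed for study. The members were CCL2, CCL11, CXCL1, CCL3, CCL4, CCL5, CXCL8, CXCL10 and CXCL12, found among 20217 non-control probes by probe name for CCL2 (A_01_P009670) and CCL11 (A_01_P000283) and by the human RefSeq transcript the array design gives for CXCL1 (NM_001511), CCL4 (NM_002984), CCL5 (NM_002985), CXCL10 (NM_001565), CXCL12 (NM_000609), CCL3 (NM_002983) and CXCL8 (NM_000584), with 1 probe for each. The accession of CXCL2 was carried by 0 probes. CCL2, CCL11 and CXCL1 stand in the study's lists of genes that differed with birth weight on these same arrays, so their differences between birth weight groups are given as a description without a test. The other members were not listed there.

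Chemokines fall into families by the spacing of their first cysteines. In the CC family, CCL2 recruits monocytes through CCR2, CCL11 (eotaxin) recruits eosinophils through CCR3, and CCL3, CCL4 and CCL5 act on T cells and monocytes. In the CXC family, CXCL1 and CXCL8 draw neutrophils through CXCR2, CXCL10 is an interferon-induced ligand of CXCR3 on activated T cells, and CXCL12 is made constitutively by stromal cells and retains CXCR4-bearing progenitor cells.

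Total RNA came from neonatal cynomolgus macaques (Macaca fascicularis) of average birth weight (ABW, 50th to 75th centile) and lower birth weight (LBW, 5th to 25th centile), without any other treatment. There were 4 ABW and 4 LBW arrays of skeletal muscle, 3 and 3 labelled liver, and 4 and 4 labelled umbilical cord, each a single-colour Agilent rhesus macaque array. Cords were taken at birth, and liver and muscle at birth by the sample labels or on postnatal day 5 by the study's methods. The dams belonged to 1 colony and had mated naturally with a single male, and the LBW group was set by centile of birth weight alone, with no growth-restricting treatment. By the study's methods liver and skeletal muscle were taken from the same neonates, so arrays of different labels can share an animal. The sources used here do not say which arrays do. Tests between labels treat the arrays as independent, and p-values measure the spread between arrays.

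Levels are log2 of the background-subtracted signal minus the 75th percentile of the same array, so that 0 is that percentile, and a probe counts as detected on an array when the scanner software flagged it as well above background. The 75th percentile lay between 315.5 and 2390.0 intensity units and 14594 to 17887 probes were detected per array. The labels and the cell type markers went apart: all 12 hepatocyte genes that could be named were higher on the arrays labelled umbilical cord than on those labelled liver (adjusted p under 0.05 by limma), and 5 of them, including CP and F13B, were detected on 0 of 6 arrays labelled liver. The 8 named matrix genes were all higher under the liver label than under the cord label. For striated muscle, 4 genes could be named and 4 were higher in skeletal muscle than under either other label. The tissues are therefore called by their labels throughout. The arrays lay on 6 slides, with skeletal muscle ABW on slide 1 and skeletal muscle LBW on slide 2. All 4 cord-labelled LBW arrays lay on slide 5, apart from the cord-labelled ABW arrays on slides 4 and 6, so under this label too the slide and the birth weight group cannot be told apart. Cord-labelled ABW replicates 3 and 4 were alone on slide 6, which was read with another software version and whose negative controls averaged 16.7 to 17.1 units, against 29.2 to 35.3 on the other slides.

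**Figure D1:**
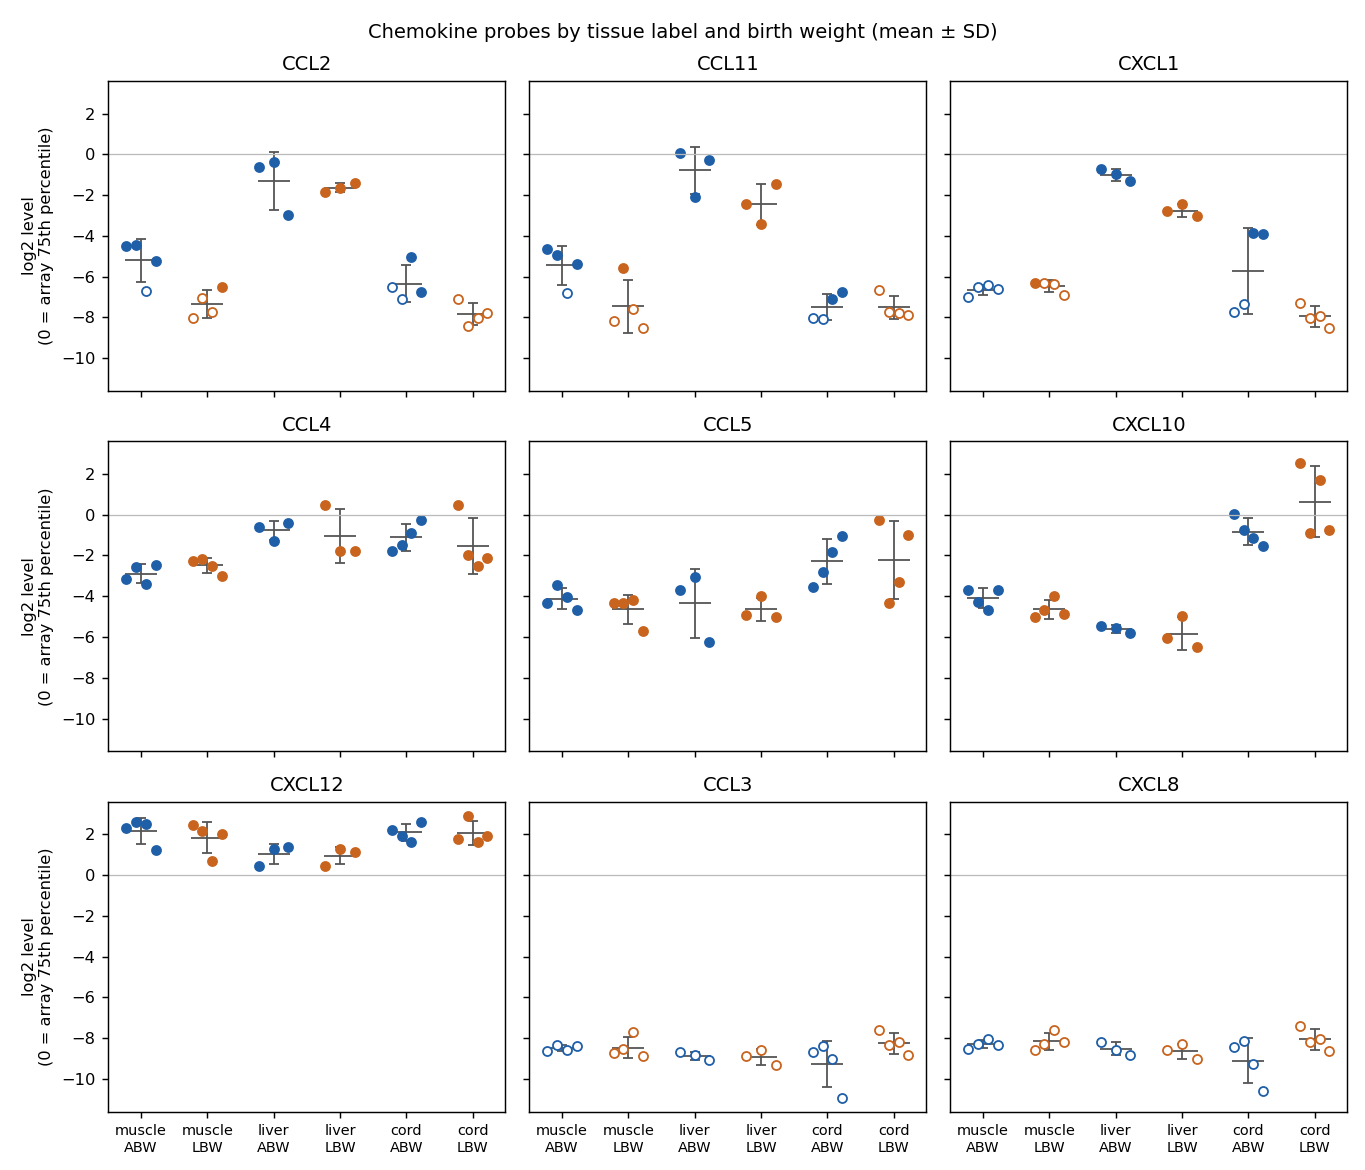
Log2 level of each of the 9 chemokine probes on each of the 22 arrays, by tissue label and birth weight (blue ABW, orange LBW). Filled points were well above background and open points were not, bars are the mean ± SD of a group, and the line at 0 is the 75th percentile of the array. CCL2, CCL11 and CXCL1 are highest on the arrays labelled liver, CXCL10 on those labelled umbilical cord, and all points of CCL3 and CXCL8 are open.

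Which chemokines an array detected went with its tissue label. CCL4, CCL5, CXCL10 and CXCL12 were detected on all 22 arrays, CCL2 and CCL11 on 12 each and CXCL1 on 9. CCL3 and CXCL8 were detected on 0 of 22 arrays, with signals of 1.24 to 2.17 and 1.45 to 2.89 units, so neither has a measured level here, and both failed the filter, which asked for detection on 75% or more of the arrays in one or another group. The filter left 7 of the 9 members and 17117 of all probes.

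The monocyte attractant CCL2 was bright on the arrays labelled liver alone. Its levels there were -0.60, -0.37 and -2.95 in ABW and -1.85, -1.68 and -1.39 in LBW. Its mean over the 6 arrays was -1.47 ± 0.93 (SD, n = 6), against -6.27 ± 1.41 (SD, n = 8) in skeletal muscle and -7.08 ± 1.06 (SD, n = 8) on the arrays labelled umbilical cord. The lowest array labelled liver lay above the highest array of either other label. The log2 difference was 4.80 against skeletal muscle (SE 0.44, adjusted p = 9.1e-09 from limma) and 5.61 against the cord label (SE 0.44, adjusted p = 6.1e-10 from limma). CCL2 was detected on 4 of 8 skeletal muscle and 2 of 8 cord-labelled arrays, and with the undetected arrays raised to the lowest signal detected on them it was 22.4-fold and 31.8-fold higher on the arrays labelled liver. Normexp background correction gave smaller log2 differences, 2.11 against skeletal muscle and 2.31 against the cord label, both past the threshold.

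CCL11, the eosinophil attractant, followed the same order. On the arrays labelled liver it stood at 0.04, -2.09 and -0.28 in ABW and at -2.45, -3.44 and -1.45 in LBW. The mean of -1.61 ± 1.33 (SD, n = 6) was above those of skeletal muscle, -6.44 ± 1.51 (SD, n = 8), and of the cord label, -7.50 ± 0.56 (SD, n = 8), again with no overlap. It exceeded skeletal muscle by 4.83 (SE 0.48, adjusted p = 2.7e-08 from limma) and the cord label by 5.89 (SE 0.48, adjusted p = 1.0e-09 from limma) on the log2 scale. With the undetected arrays at the lowest detected signal these were 20.9-fold and 36.7-fold, and normexp correction reduced the log2 differences to 1.79 and 2.06. Skeletal muscle and the cord label lay close together, with a cord minus muscle difference of -1.05 (SE 0.44, adjusted p = 0.043 from limma) for CCL11 and of -0.81 (SE 0.41, adjusted p = 0.0885 from limma) for CCL2. Only 2 of 8 cord-labelled arrays detected either gene, and with the others at the lowest detected signal skeletal muscle was 1.29-fold higher for CCL11 and 1.14-fold higher for CCL2. The CCL2 difference passed without slide 6 (-1.04, adjusted p = 0.0465 from limma), without ABW replicate 3 of the cord label, of skeletal muscle or of the liver label (lowest adjusted p = 0.0215 from limma). The CCL11 call was lost with 10 of the 22 arrays left out singly (highest adjusted p = 0.11 from limma, without skeletal muscle LBW replicate 2), with normexp background correction, and with a floor on dim signals, and it turned to 0.24 with spike-in scaling.

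CXCL1, a neutrophil attractant, was the third member with this pattern, at -1.88 ± 1.0 (SD, n = 6) on the arrays labelled liver. It was detected on all 6 of these arrays but on only 1 of 8 skeletal muscle arrays and on 2 of 8 labelled umbilical cord. CXCL1 passed the detection filter only through the arrays labelled liver, where it is high, so its differences from them are a description. The liver label exceeded skeletal muscle by 4.68 (SE 0.48) and the cord label by 4.95 (SE 0.48), or 25.0-fold and 18-fold with undetected arrays at the lowest detected signal, and 1.64 and 1.51 on the log2 scale with normexp correction. Between skeletal muscle and the cord label its difference of -0.28 did not pass the test (SE 0.45, 95% interval -1.21 to 0.66, adjusted p = 0.607 from limma). Both labels were mostly undetected in this comparison. Without the arrays of slide 6, an alternative chosen after seeing the data, no cord-labelled array detected CXCL1 and the fit gave -1.19 (adjusted p = 4.2e-05 from limma), a value between signals at background.

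CXCL10, the interferon-induced T cell attractant, had the opposite order. On the arrays labelled umbilical cord its levels were 0.04, -0.76, -1.12 and -1.53 in ABW and 2.51, -0.88, 1.70 and -0.77 in LBW. Skeletal muscle ranged from -5.03 to -3.69 and the liver label from -6.50 to -4.96, so every cord-labelled array was above every other array. The cord label exceeded skeletal muscle by 4.27 (SE 0.42, adjusted p = 1.5e-08 from limma), and the liver label was below the cord label by -5.62 (SE 0.45, adjusted p = 7.9e-10 from limma). The liver label was also below skeletal muscle, by -1.35 (SE 0.45, adjusted p = 0.0125 from limma). That last call was lost with normexp correction (adjusted p = 0.107 from limma) and with spike-in scaling (adjusted p = 0.483 from limma).

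CCL5, which acts on memory T cells, was also highest on the arrays labelled umbilical cord, where it ranged from -4.34 to -0.26 around a mean of -2.26 ± 1.44 (SD, n = 8). Its means were -4.39 ± 0.64 (SD, n = 8) in skeletal muscle and -4.49 ± 1.13 (SD, n = 6) on the liver label, and these neighbours did not differ beyond their spread (difference -0.11, 95% interval -1.35 to 1.13, adjusted p = 0.885 from limma). The cord label was above skeletal muscle by 2.13 (SE 0.55, adjusted p = 0.00208 from limma), and the liver label was below the cord label by -2.23 (SE 0.59, adjusted p = 0.00256 from limma). Slide 4 held 2 cord-labelled ABW and 2 liver-labelled LBW arrays, so label and birth weight cannot be told apart there. Within slide 4 the CCL5 difference was -1.35 and its call was lost (adjusted p = 0.0676 from limma). CCL4, which attracts T cells and monocytes, was lowest in skeletal muscle at -2.69 ± 0.44 (SD, n = 8). It was 1.79 higher on the liver label (SE 0.43, adjusted p = 0.00116 from limma) and 1.37 higher on the cord label (SE 0.40, adjusted p = 0.00514 from limma). The difference of 0.42 between the liver and the cord label did not pass (95% interval -0.48 to 1.32, adjusted p = 0.399 from limma).

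CXCL12 was above the 75th percentile on every array, from 0.46 to 2.90, and had the narrowest range of the 7 measured members. Its means were 2.0 ± 0.68 (SD, n = 8) in skeletal muscle and 2.07 ± 0.46 (SD, n = 8) on the cord label, which differed by 0.07 (95% interval -0.51 to 0.65, adjusted p = 0.838 from limma). The liver label, at 0.99 ± 0.42 (SD, n = 6), was below skeletal muscle by -1.0 (SE 0.30, adjusted p = 0.00638 from limma) and below the cord label by -1.08 (SE 0.30, adjusted p = 0.00375 from limma). Within slide 4, which set liver-labelled LBW against cord-labelled ABW arrays, the difference was -0.86 and did not pass (adjusted p = 0.0521 from limma). With spike-in scaling the first of these calls was lost (adjusted p = 0.782 from limma) and the cord label was higher than skeletal muscle by 1.36 (adjusted p = 0.0327 from limma).

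**Figure D2:**
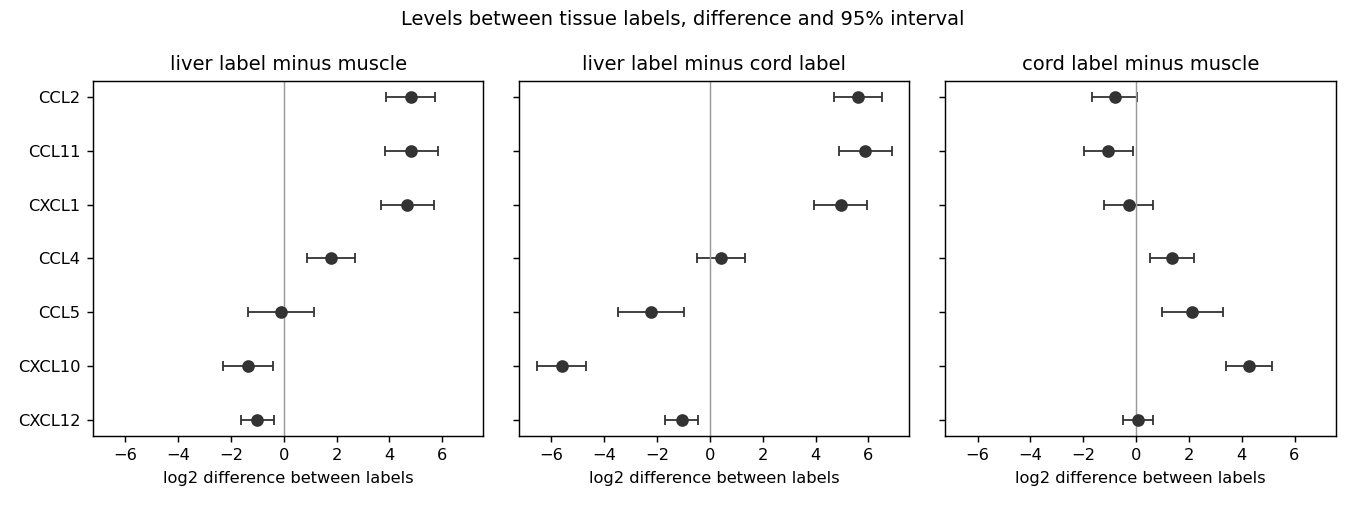
Log2 difference in level between tissue labels for the 7 measured chemokine probes, with 95% intervals from the limma fit of the 6 groups. CCL2, CCL11 and CXCL1 lie between 4.68 and 5.89 above 0 in both liver-label panels, and CXCL10 lies at -5.62 against the cord label.

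In all, 6 of the 7 measured members passed an adjusted p under 0.05 by limma between the liver label and skeletal muscle, where 65.3% of all probes did (28.1% higher and 37.1% lower on the liver label). Between the liver and the cord label 6 of 7 passed, against 66.9% of all probes (31.3% higher and 35.6% lower on the liver label), and between the cord label and skeletal muscle 4 of 7 passed, against 64.9% (29.1% higher and 35.8% lower on the cord label). The arrays of the compared labels did not overlap for 4, 5 and 1 of the 7, against 42.5%, 38% and 32.2% of all probes. Without CXCL1, 5 of 6, 5 of 6 and 4 of 6 members passed, and 3, 4 and 1 of 6 did not overlap. With a background this high the number of calls sets the members apart little. Exact permutation tests of the difference of means (two-sided) gave p = 0.000666 for CCL2 and CCL11 in both liver-label comparisons, the smallest that 6 against 8 arrays can give. Under spike-in scaling the median over all probes shifted from -0.21 to 0.52 between the liver label and skeletal muscle, from -0.13 to -0.69 between the liver and the cord label, and from -0.11 to 1.18 between the cord label and skeletal muscle.

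Marker genes of other cell types moved with these labels as well. The summed log2 level of the 8 matrix genes was 7.10 to 7.55 on the arrays labelled liver, 5.05 to 6.30 on those labelled umbilical cord and 2.13 to 4.13 in skeletal muscle. The cord label stood above skeletal muscle in this sum through FN1 (difference 4.32), while 4 of the 8 genes were lower there and the median difference was -0.81. The 4 leukocyte genes that could be named, MMP25, CD163L1, CD200R1 and IL1R2, summed to 2.50 to 5.04 on the cord label, -1.76 to 1.64 on the liver label and -4.99 to -3.29 in skeletal muscle, and CD200R1 was detected on 0 of 8 skeletal muscle arrays. IL1R2 dominates this sum: between the liver and the cord label 2 of the 4 were lower, CD200R1 was higher by 1.25 and MMP25 did not pass (-0.16). Of the erythroid list only CA2 and BNIP3L could be named. They summed to -0.28 to 0.67 on the cord label, -2.99 to -1.23 on the liver label and -3.79 to -0.38 in skeletal muscle. Between the liver and the cord label CA2 was lower (-4.98) and BNIP3L higher (2.88) on the liver label. In whole tissue, more cells of a type and more transcript per cell cannot be told apart, and the part of these cell types in the chemokine levels was not tested.

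In skeletal muscle the CCL2 signal was dim in both birth weight groups. Its levels were -4.48, -4.43, -6.70 and -5.21 in ABW and -8.05, -7.06, -7.73 and -6.52 in LBW. The groups overlapped only through ABW replicate 3, which was below LBW replicate 4. CCL2 was detected on 3 of 4 ABW and 1 of 4 LBW arrays, with processed signals of 7.38 to 35.9 units in ABW and 1.69 to 7.89 units in LBW, so most of the LBW values lie at background. LBW minus ABW of these values was -2.13 (SE 0.53, 4 arrays a group), and its size rests on LBW arrays that mostly did not detect the gene.

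CCL11 had a similar difference in skeletal muscle. Its levels were -4.66, -4.93, -6.80 and -5.37 in ABW and -8.17, -5.57, -7.57 and -8.50 in LBW. ABW replicate 3 was again low and LBW replicate 2 stood among the ABW arrays, the single LBW array on which CCL11 was detected. LBW minus ABW was -2.01 (SE 0.67), again mostly against undetected arrays, with signals of 6.92 to 31.8 units in ABW and 1.90 to 13 units in LBW.

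Both values depended on how background was treated. Normexp correction of the raw pixel signals left -0.17 (SE 0.22) for CCL2 and 0.013 (SE 0.22) for CCL11, and a floor at the lowest detected signal of each array gave -1.50 and -1.13. Other scalings moved them the other way, to -2.62 and -2.50 with spike-in controls, where the median of all probes in skeletal muscle went from 0.07 to -0.42. The deposited value table gave -2.25 and -2.02. Each birth weight group of skeletal muscle had a slide of its own, so the effect of the slide and that of birth weight cannot be told apart.

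**Figure D3:**
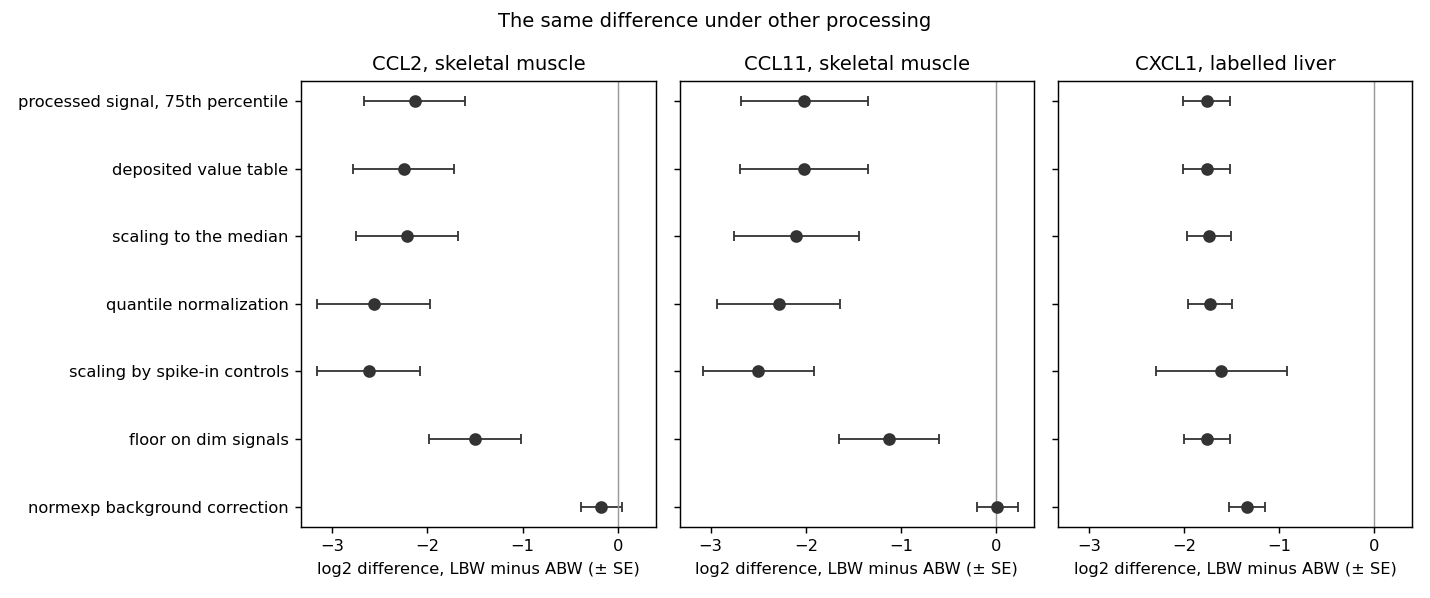
LBW minus ABW on the log2 scale (± SE) under the processing used here and 6 alternatives, for CCL2 and CCL11 in skeletal muscle and CXCL1 on the arrays labelled liver. The points of CCL2 and CCL11 move from about -2 to near 0 with normexp correction, whereas CXCL1 lies between -1.76 and -1.34.

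The skeletal muscle matrix markers were low in the same group. All 8 matrix genes had a lower mean in LBW, with a median difference of -1.20 where the median of all probes was 0.07, and their summed level was 2.56 to 4.13 in ABW and 2.13 to 2.72 in LBW. Of the inflammatory probes 8 of 9 were lower (median -0.75), and so were both erythroid genes, CA2 by -1.83 and BNIP3L by -1.35. The striated muscle genes went the other way, with 0 of 4 lower and a median of 0.46. The leukocyte genes summed to -4.25 to -3.29 in ABW and -4.99 to -4.35 in LBW. Most of these genes could be named only because the study listed them as differing with birth weight, so their direction is no independent evidence, and their part in the chemokine values was not tested.

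On the arrays labelled liver, CXCL1 was lower in LBW. CCL11 was lower in its mean but with overlapping groups, and CCL2 was not clearly lower. CXCL1 stood at -0.71, -0.99 and -1.29 in ABW and at -2.80, -2.43 and -3.05 in LBW, all of them detected. Every ABW array was above every LBW array. That holds for 3.21% of all probes, from which nothing is read here, since CXCL1 was chosen by this contrast. The difference was -1.76 (SE 0.25), or 3.39-fold lower, and without single arrays it stayed between -1.93 and -1.62. Within slide 3, which held the 3 ABW arrays and LBW replicate 1, the difference was -1.80.

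CCL11 was lower by -1.67 (SE 0.70) on the same arrays, or 3.18-fold. The groups overlapped, since ABW replicate 2 was below LBW replicate 3, and without single arrays the difference ranged from -2.33 to -1.17. Within slide 3 it was -1.67. For CCL2 the difference was -0.33 (SE 0.67), with ABW replicate 3 below all LBW arrays, and it was -1.16 without that array and 0.14 without ABW replicate 2. The 4 named leukocyte genes were also all lower in LBW under the liver label, as were 41.5% of all probes. Their median difference was -2.22, and their summed level was -0.14 to 1.64 in ABW and -1.76 to -1.49 in LBW. IL1R2 dominates this sum. The 9 inflammatory probes described at the end, with IL1R2 again among them, were all lower there too, with a median of -0.56. Of these, TOLLIP (-0.013) and STAT6 (-0.066) were near 0. These genes, too, were named through the study's birth weight list, and their part in the chemokine values was not tested.

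Under the cord label CCL2, CCL11 and CXCL1 were detected only on the ABW arrays of slide 6. CXCL1 stood at -7.73 and -7.36 on replicates 1 and 2 of ABW, at -3.88 and -3.92 on ABW replicates 3 and 4, and between -8.51 and -7.27 in LBW. The ABW values split by slide. LBW minus ABW was -2.22 (SE 0.86) over all arrays, -0.40 against the ABW arrays of slide 4 and -4.04 against those of slide 6. These sizes rest on LBW arrays that did not detect the gene. A floor on dim signals gave -1.29 (SE 0.72), and normexp correction gave 0.12.

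CCL2 split less by slide on the cord label. It stood at -6.49, -7.10, -5.02 and -6.73 in ABW and at -7.07, -8.40, -8.05 and -7.80 in LBW, a difference of -1.50 (SE 0.47), with ABW replicate 2 just below LBW replicate 1. No LBW array was above background, and only ABW replicate 3 stood clear of the other ABW arrays. Against slide 4 alone the difference was -1.04 and against slide 6 alone -1.95. A floor on dim signals left -0.45 (SE 0.43), and normexp correction turned the difference to 0.57. Under this label 8 of 8 matrix genes (median -0.47) and 4 of 4 leukocyte genes (median -0.66) were also lower in LBW, as were 50.9% of all probes. Of the striated muscle genes 0 of 4 were lower (median 0.74). Of the hepatocyte genes 6 of 12 were lower, among them F13B (-3.81) and CP (-3.72). Of the 2 erythroid genes BNIP3L was lower (-4.20) and CA2 was not (0.26). These marker genes, too, were named through the study's birth weight list, so their direction is no independent evidence. The part of these genes in the chemokine values was not tested. For CCL11 the ABW mean was -7.50 ± 0.65 (SD, n = 4) and the LBW mean -7.50 ± 0.57 (SD, n = 4). In skeletal muscle CXCL1 was near background in both groups, with an ABW mean of -6.63 ± 0.25 (SD, n = 4) and an LBW mean of -6.47 ± 0.29 (SD, n = 4).

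CCL4, CCL5, CXCL10 and CXCL12 were not chosen by birth weight and were tested within each label. Of the 4, 0 passed an adjusted p under 0.05 by limma in skeletal muscle, on the liver label or on the cord label, where 0%, 0% and 0.625% of all probes passed. At 1.5-fold and p under 0.05 without adjustment 0 of the 4 passed in any label in these fits, against 12.2%, 4.71% and 8.93% of all probes. The methods' t-test called 0 of all 17117 probes in each label after Benjamini-Hochberg adjustment, so its 0 of the 4 says nothing about these members. With 4 against 4 arrays the smallest exact p is 0.0286 and with 3 against 3 it is 0.10.

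The largest of these differences was that of CXCL10 on the cord label. LBW replicates 1 and 3, at 2.51 and 1.70, were above all 4 ABW arrays, and LBW replicates 2 and 4, at -0.88 and -0.77, stood among them. LBW minus ABW was 1.48 (SE 0.75, 95% interval -0.18 to 3.14, adjusted p = 0.587 from limma, exact permutation p = 0.229). It was 1.96 against the ABW arrays of slide 6 alone and 1.0 against those of slide 4 alone. With single arrays left out it ranged from 0.86 (without LBW replicate 1) to 1.99. The SE was smaller with slide as a random block (0.62, adjusted p = 0.317 from limma). It was 0.59 in the fit of the 6 groups (adjusted p = 0.197 from limma) and 0.53 with a replicate block (adjusted p = 0.547 from limma). In skeletal muscle CXCL10 differed by -0.56 (95% interval -1.24 to 0.13, adjusted p = 0.443 from limma) and on the liver label by -0.22 (95% interval -1.18 to 0.73, adjusted p = 0.969 from limma). Quantile normalization gave -0.77 in skeletal muscle (SE 0.26, adjusted p = 0.258 from limma). The interaction of birth weight and tissue label for CXCL10 did not pass (adjusted p = 0.511 from limma).

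CCL5 differed by -0.52 in skeletal muscle (95% interval -1.39 to 0.34), by -0.30 on the liver label (95% interval -2.25 to 1.65) and by 0.07 on the cord label (95% interval -1.87 to 2.01). CCL4 differed by 0.41 in skeletal muscle (95% interval -0.21 to 1.04), by -0.26 on the liver label (95% interval -1.82 to 1.30) and by -0.42 on the cord label (95% interval -1.81 to 0.98). The intervals of CCL5 and CCL4 were wider on the liver and cord labels than in skeletal muscle. Without single arrays CCL5 ranged from -0.71 to -0.17 in skeletal muscle and CCL4 from -1.09 to -0.09 on the cord label. Within slide 3, where LBW replicate 1 was the only LBW array, CCL4 differed by 1.26 on the liver label. CXCL12 differed by -0.33 in skeletal muscle, -0.09 on the liver label and -0.03 on the cord label, and its intervals stayed within -1.31 and 0.77. Over the 3 labels together, 0 of the 4 passed for the mean birth weight difference, where 0.888% of all probes did, and 0 for the interaction, where 1.01% did.

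**Figure D4:**
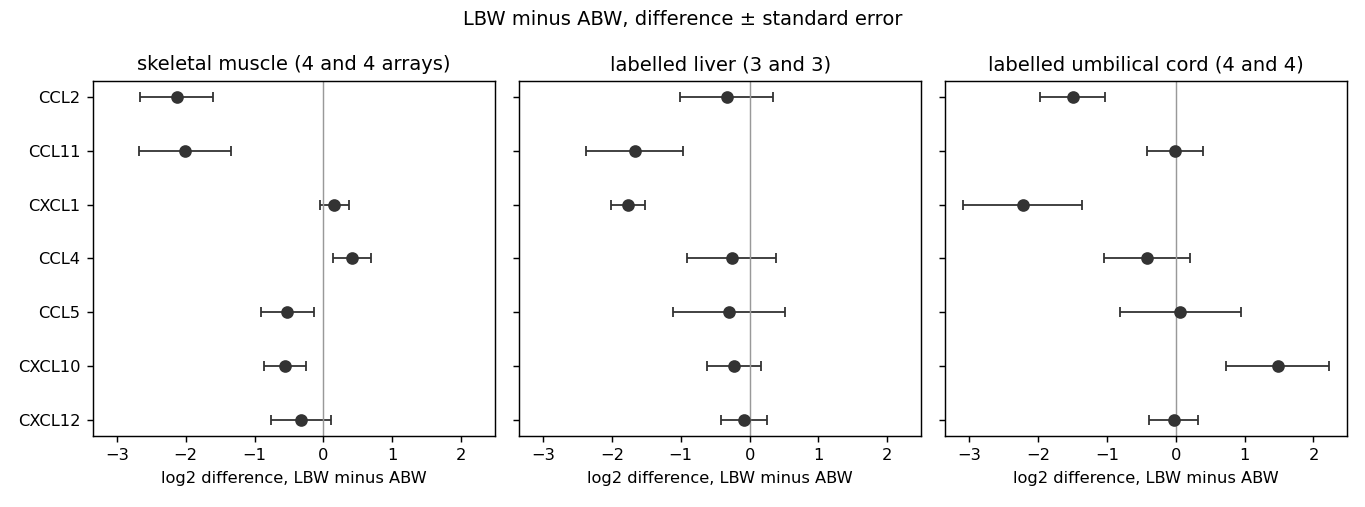
LBW minus ABW on the log2 scale (± standard error) for the 7 measured chemokine probes in each tissue label. CCL2 and CCL11 lie near -2 in skeletal muscle, CCL11 and CXCL1 near -1.7 on the liver label, and CXCL10 at 1.48 on the cord label.

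Counting directions alone, 5 of the 7 measured members were lower in LBW in skeletal muscle, 7 of 7 on the liver label and 5 of 7 on the cord label, where 42.7%, 41.5% and 50.9% of all probes were lower. With single arrays left out the count on the liver label was 4 to 6, lowest without ABW replicate 2. CCL2, CCL11 and CXCL1 were chosen by this contrast, so these counts describe the list. The median difference of the members was -0.52, -0.30 and -0.03, against 0.07, 0.06 and -0.01 for all probes. Scaling to the median left 3 of 7 lower on the cord label.

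The levels of CCL2 and CCL11 rose and fell together over the arrays mainly because both were high on the liver label (Pearson r = 0.91 over the 22 arrays). After each label was centred on its mean, r was 0.49 over the 22 arrays, 0.79 over the 8 skeletal muscle arrays, -0.06 over the 6 labelled liver and 0.37 over the 8 labelled umbilical cord. Each of the 2 genes was detected on 12 of the 22 arrays, with 4 of 8 in skeletal muscle and 2 of 8 under the cord label. Many of the correlated values, here and in the likeness below, therefore lie at background. These arrays share labels and slides, and the values are a description. The named genes most like CCL2 after centring were OSTF1 (r = 0.82), EIF4E (r = 0.80), C8orf38 (r = 0.79), SMARCB1 (r = 0.78) and S100A4 (r = 0.76). For CCL11 they were VCAM1 (r = 0.72), FBXO15 (r = 0.67), SNX10 (r = 0.66), FRMD6 (r = 0.65) and MYO5A (r = 0.64). Only genes that the study listed by birth weight carry a name here, so a pattern shared with birth weight was favoured.

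Of 35 further chemokines that were looked for, 5 had a named probe, again through the study's birth weight list. Of these, 5 were higher on the liver label than in skeletal muscle at an adjusted p under 0.05 by limma, 2 were higher and 2 lower on the liver label than on the cord label, and 4 were higher on the cord label than in skeletal muscle. Of all probes 28.1% were higher in the first comparison, 31.3% higher and 35.6% lower in the second, and 29.1% higher in the last. A transcript described as similar to CXCL2 and the neutrophil attractant CXCL3 resembled CXCL1 on the arrays labelled liver. The CXCL2-like transcript had an ABW mean of 0.40 ± 0.50 (SD, n = 3) and an LBW mean of -1.27 ± 1.01 (SD, n = 3) there. CXCL3 averaged -1.79 ± 1.29 (SD, n = 3) in ABW arrays and -3.75 ± 0.95 (SD, n = 3) in LBW arrays, which differ by -1.96. CXCL16, a membrane-bound ligand of CXCR6, differed the other way, by 1.13 in skeletal muscle, 0.47 on the liver label and 0.80 on the cord label. CCL25, which guides T cells to the gut and thymus, was highest on the cord label with an ABW mean of 0.11 ± 0.35 (SD, n = 4) and an LBW mean of 0.38 ± 0.48 (SD, n = 4). CKLF, a chemokine-like factor, was detected on 6 of 6 arrays labelled liver and on 0 of 8 of skeletal muscle. On the cord label it was detected on 4 of 4 ABW arrays, with a mean of -4.44 ± 1.25 (SD, n = 4), and on 0 of 4 LBW arrays. With the LBW arrays at the lowest detected signal it was at least 4.75-fold lower in LBW, or 3.69-fold to 6.41-fold with single ABW arrays left out.

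The study's supplement, the source of symbols for these lists, named no probe for any of 28 chemokine receptors. The receiving side of these signals was therefore not analysed here. Of 31 inflammatory signalling genes 8 were named, with 9 probes. Of these probes 8 were higher and 1 lower on the liver label than in skeletal muscle, and 2 were higher and 5 lower on the liver than on the cord label. On the cord label against skeletal muscle 6 were higher and 2 lower. Between 64.9% and 66.9% of all probes passed in each of these comparisons. VCAM1, the endothelial adhesion molecule, was higher on the cord label than in skeletal muscle by 4.07, and it differed between birth weights by -0.75 in skeletal muscle, -0.66 on the liver label and -0.77 on the cord label. The decoy receptor IL1R2 stood on the liver label at an ABW mean of 0.31 ± 1.35 (SD, n = 3) and an LBW mean of -1.94 ± 0.28 (SD, n = 3), where CXCL1 was also lower in LBW.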

How the data were processed

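RNA from 22 arrays was grouped by the sample labels. The scanner intensity of each spot is, per the file headers, the Feature Extraction signal after background subtraction, unscaled between arrays. The raw median signals served for normexp correction with an offset of 50. The log2 table deposited by the authors was scaled to the 75th percentile in GeneSpring, per the methods, with every probe centred to its tissue's median. The flags deposited by the authors are scanner calls (well above background, outlier), 0 or 1 per spot.

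Replicate spots were averaged before log2, and the 75th percentile of that array was subtracted. Differences were fitted in limma 3.58.1 (R 4.3.3, with statmod 1.5.0 for blocks), within a label for birth weight and over 6 groups between labels, with Benjamini-Hochberg adjustment over 17117 probes, after tests on simulated data. Tables and figures used Python 3.11.15, numpy 2.4.6, pandas 2.3.3, scipy 1.17.1 and matplotlib. For some folds undetected arrays were raised to the lowest signal detected on them. The members, the lists of further chemokines, receptors, inflammatory genes and cell type markers, and the tests were chosen with earlier results of these data known. All members were named, with the 5 named probes most correlated with CCL2 and with CCL11. Symbols came from the study's supplement for 1893 of 19376 accessions, and 0 accessions matched the reference table. The array design names the build rheMac2 and no coordinates were used. Alternatives covered background correction, scaling, the deposited table, a floor, filters, the methods' t-test, the fit of the 6 groups, slide and replicate blocks and leaving out each array. Precision is limited by the number of arrays.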

Additional observations from a re-analysis of the deposited data

Results flagged for a closer look

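Among the 28 groups of 4 arrays of the 7 measured probes, 3 held an array whose gap to its nearest neighbour exceeded Dixon's 95% critical value, where chance marks about 1 in 20 groups. CCL11 on cord-labelled LBW replicate 1 was the highest of its group at -6.66 and was not well above background. CXCL1 on skeletal muscle LBW replicate 4 was the lowest of its group at -6.91, also not above background. CCL5 on skeletal muscle LBW replicate 4 was the lowest of its group at -5.72 and was above background.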

How the results depend on the processing

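The tissue label differences of CCL2 and CCL11 against the liver label kept their direction and passed the threshold under every alternative run, and the calls of CXCL10 and CCL5 on the cord label against skeletal muscle did too. Their size did not hold, since normexp correction reduced CCL2 to 2.11 and 2.31 and CCL11 to 1.79 and 2.06 against skeletal muscle and the cord label. For CCL2 against the cord label the adjusted p from limma reached at most 0.00032. With normexp correction the skeletal muscle LBW minus ABW differences became -0.17 for CCL2 and 0.013 for CCL11, that of CXCL1 on the liver label -1.34, and 2 of 7 members were lower on the cord label. Scaling to the median left 3 of 7 lower there and the ABW arrays of slide 4 alone 2. The cause was not tested. Leaving out single arrays gave -2.63 to -1.87 for CCL2 and -2.64 to -1.67 for CCL11 in skeletal muscle, -2.33 to -1.17 for CCL11 and -1.93 to -1.62 for CXCL1 on the liver label, and 4 to 5, 4 to 6 and 3 to 6 members lower in LBW in skeletal muscle, on the liver label (4 without ABW replicate 2) and on the cord label (3 without ABW replicate 4 or LBW replicate 3).

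Of all probes, 2089 in skeletal muscle, 806 on the liver label and 1528 on the cord label passed 1.5-fold and p under 0.05 without adjustment. In skeletal muscle the count was 1365 by the methods' t-test and 539 by normexp. On the liver label it was 513 in the fit of the 6 groups, 310 by the t-test, 303 by normexp, 264 by spike-in scaling, 1496 with slide as a fixed block and 1400 within slide 3, both of which compare the 3 ABW arrays with LBW replicate 1 alone, whose spread is taken to be that of the other arrays. On the cord label it was 715 with slide 4 alone, 2479 in the fit of the 6 groups, 1008 by the t-test, 227 by spike-in scaling and 2419 with slide as a random block. Single arrays left out gave 1484 to 2881, 635 to 1425 (the highest without LBW replicate 1) and 1111 to 1839. In skeletal muscle 1661 probes were higher and 428 lower, and by spike-in scaling 188 and 2734, by quantiles 1151 and 707, by the median 1360 and 636, and by normexp 363 and 176. On the cord label 627 and 901 became 2 and 225 by spike-in scaling, 894 and 734 by the median and 821 and 420 by normexp. On the liver label 517 and 289 became 122 and 142 by spike-in scaling and 121 and 182 by normexp.

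Some directions also turned, all of values that had not passed the test except CCL11 cord minus muscle. With spike-in scaling cord minus muscle was 0.24 for CCL11, 0.48 for CCL2 and 1.02 for CXCL1, all below the shift of all probes, liver minus cord was -0.14 for CCL4, and liver minus muscle was 0.62 for CCL5. LBW minus ABW with that scaling was -0.072 for CCL4 in skeletal muscle, -0.31 for CCL5 on the cord label and 0.068 for CXCL12 on the liver label. CXCL1 cord minus muscle was 0.47 with the floor and 0.13 with normexp. CCL5 liver minus muscle was 0.00625 by quantiles, and CXCL12 on the cord label 0.042 by the median and 0.0011 with slide 4 alone. CCL4 was 0.10 with slide 4 alone, 1.26 on the liver label both with slide as a block and within slide 3, and -0.16 for liver minus cord within slide 4. CCL5 on the cord label was -0.80 with slide 6 alone. With arrays left out singly, CCL4 on the liver label ranged from -1.02 to 0.12, CCL5 from -1.26 to 0.33 there, -0.59 to 0.77 on the cord label and -0.42 to 0.37 for liver minus muscle, CXCL1 cord minus muscle from -0.58 to 0.059, CXCL10 on the liver label from -0.66 to 0.11, and CXCL12 from -0.64 to 0.051 in skeletal muscle, -0.37 to 0.16 on the liver label, -0.31 to 0.14 on the cord label and -0.12 to 0.17 for cord minus muscle.

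Within a tissue label the deviations of same-numbered ABW and LBW arrays correlated at -0.22 to 0.30. Differently numbered arrays were not compared, so these values cannot decide whether replicate numbers pair the arrays. Whether same-numbered arrays of different labels share an animal was not tested by these correlations. With a replicate block the liver count was 950, the skeletal muscle count 1994 and the cord count 1378, the CCL11 cord minus muscle call was lost (adjusted p = 0.061 from limma), and no other call of a member changed. Within slide 4, chosen after seeing the data, 4 of 7 members passed between the liver and the cord label, where 7599 of 17117 probes did. CXCL1 was among the 4 and had passed the detection filter only through the liver label. With so many probes called, the count sets the members apart little. The calls of CCL5 and CXCL12 were lost. The cord-labelled arrays of that slide were ABW and the liver-labelled ones LBW, so label and birth weight cannot be told apart there. Each member accession had 1 probe, so averaging probes of an accession gave no other value.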
